A study of Mus musculus with 6 samples.

Results

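The transcription factor p53 (Trp53) and 6 of its common target genes (Mdm2, Ccng1, Sesn1, Trp53inp1, Perp and Btg2) were examined in Lhx2 cells given transforming growth factor β1 (TGF-β1) for 2 h. The 7 genes were taken as probes whose RefSeq accession maps to these symbols, leaving aside the BH3-only death genes and p21. All 7 were measured, out of 15638 named genes among 29163 genes and transcripts tested. The data are 6 one-colour Agilent arrays of total RNA, 3 from untreated cells (0 ng/ml) and 3 from cells given TGF-β1 at 10 ng/ml, from 3 independent harvests. All cells, the controls included, are the mouse line labelled Lhx2, grown with fetal calf serum, mouse stem cell factor and human interleukin 6 and then held overnight with bovine serum albumin in place of the serum. Lhx2 cells are a blood progenitor-like line kept growing by the LIM-homeobox factor Lhx2, so every value comes from 1 line in culture. Each treated sample is set against the untreated one that carries its replicate number, and these form pairs 1, 2 and 3.

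p53 is kept scarce in unstressed cells mainly at the protein level, by the ubiquitin ligase Mdm2, and p53 in turn switches on the Mdm2 gene, which closes a negative feedback loop. When p53 is stabilised after DNA damage or other stress, it binds its response elements and raises genes of cell-cycle arrest, repair, metabolism and death, and in blood stem cells it is known for its part in quiescence. A transcript level of Trp53 therefore says little about p53 activity, for which the target transcripts are the usual readout, although most of these targets also have other activators.

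The regulatory sequence around the starts of these genes is shown because p53 targets are thought to share p53 response elements. Sequence outside the windows described here was not searched, so response elements elsewhere in these genes would be missed. RefSeq promoter windows of build GRCm38.p6, each with 250 bases before and 50 after a transcript start, were matched for 5 of the 7 genes (6 windows, with both starts of Sesn1); Trp53inp1 and Perp were not matched. Both strands were searched for the p53 consensus decamer, the 10-base unit that occurs paired in p53 response elements, and for the SMAD sequences CAGAC and GGCGC. An exact decamer was found in windows of 4 genes, Trp53, Mdm2, Ccng1 and Sesn1, 1 in each, while 8.36% of all 32851 windows held at least 1. The windows below run 5′ to 3′ on the gene's strand, with the decamer in capitals, and were chosen because they hold it. They are Trp53 at chr11:69580109-69580408 (+ strand), Mdm2 at chr10:117710709-117711008 (- strand), Ccng1 at chr11:40755237-40755536 (- strand) and the downstream start of Sesn1 at chr10:41887189-41887488 (+ strand).
Trp53: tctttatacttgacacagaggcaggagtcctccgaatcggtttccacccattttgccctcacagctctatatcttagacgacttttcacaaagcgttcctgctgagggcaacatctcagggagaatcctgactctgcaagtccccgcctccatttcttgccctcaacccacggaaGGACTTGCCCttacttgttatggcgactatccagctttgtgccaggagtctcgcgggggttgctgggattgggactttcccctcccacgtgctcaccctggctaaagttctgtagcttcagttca
Mdm2: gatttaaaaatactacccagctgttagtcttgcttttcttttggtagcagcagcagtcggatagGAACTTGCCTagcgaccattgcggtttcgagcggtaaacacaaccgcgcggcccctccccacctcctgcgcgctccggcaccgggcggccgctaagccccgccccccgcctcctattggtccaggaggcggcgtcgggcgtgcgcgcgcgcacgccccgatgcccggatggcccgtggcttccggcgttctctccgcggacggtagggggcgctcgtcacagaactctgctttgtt
Ccng1: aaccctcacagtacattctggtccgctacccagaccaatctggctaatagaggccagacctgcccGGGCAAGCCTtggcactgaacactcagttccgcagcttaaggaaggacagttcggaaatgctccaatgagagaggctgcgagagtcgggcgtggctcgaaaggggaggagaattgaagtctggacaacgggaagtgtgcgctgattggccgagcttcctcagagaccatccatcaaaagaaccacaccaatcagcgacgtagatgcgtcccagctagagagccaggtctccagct
Sesn1: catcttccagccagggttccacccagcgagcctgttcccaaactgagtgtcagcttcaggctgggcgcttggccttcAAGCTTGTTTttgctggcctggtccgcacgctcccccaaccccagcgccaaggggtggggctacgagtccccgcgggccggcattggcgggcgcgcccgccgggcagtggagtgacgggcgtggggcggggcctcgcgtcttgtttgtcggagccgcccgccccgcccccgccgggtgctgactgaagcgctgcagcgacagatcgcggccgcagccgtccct

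The decamer began 75 bases before the start in Trp53, 186 in Mdm2, 185 in Ccng1 and 173 in Sesn1. In Ccng1 it directly followed 10 bases with 1 mismatch to the consensus, and the 20 bases together read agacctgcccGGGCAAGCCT. Windows of 2 genes, Ccng1 (3 matches) and the upstream start of Sesn1 (1 match), held CAGAC or its complement, against 49.6% of all windows. GGCGC or its complement was found in 4 of the 6 windows, against 36.9% of all, with 6 matches in Btg2, which had no p53 decamer. No match of a SMAD sequence overlapped an exact decamer, but 1 CAGAC in Ccng1 overlapped the 10 bases before it. These are letter matches and not evidence of binding.

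None of the 7 genes passed the test after 2 h of TGF-β1. The test was limma with the replicate number as a block, which compares each treated array with the untreated array of its pair, and a gene was called at a Benjamini-Hochberg adjusted p under 0.05 over all 29163 genes and transcripts. It called 196 of them, or 0.672%, 161 higher and 35 lower. At an unadjusted p under 0.05, which 10.9% of all genes reached, 2 of the 7 were found, Sesn1 and Perp, both lower. The 7 log2 changes ran from -0.53 to 0.21 with a median of -0.17, against a median of -0.0064 over all genes. The same arrays recorded large changes elsewhere: the SMAD targets Smad7, Skil and Ski rose by 3.56, 3.46 and 2.93 on the log2 scale (adjusted p = 0.0074, 0.00802 and 0.0114). Levels below are log2 of the background-corrected signal relative to the 75th percentile of the array, so a level of 0 is the signal that 75% of spots do not exceed. All 15 probes of the 7 genes were well above background on all 6 arrays. Every standard error (SE) and interval is from limma with 3 pairs, unless the fit without the replicate block is named.

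**Figure D1:**
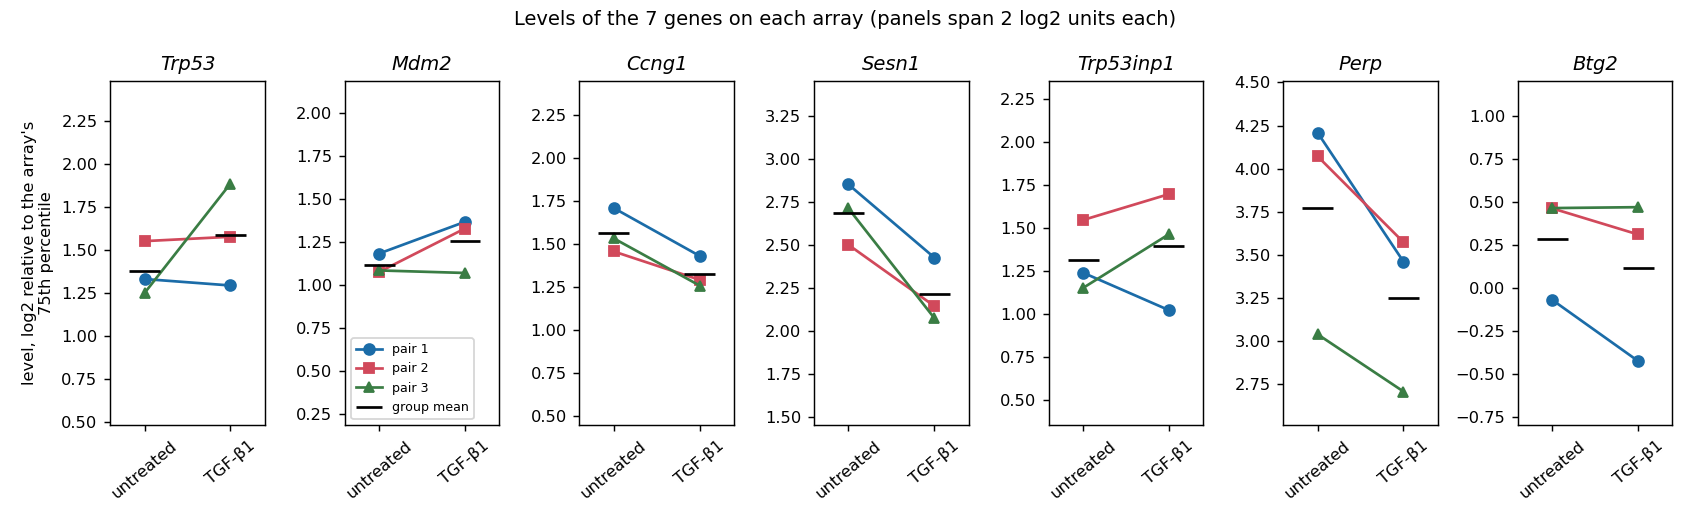
Level of each gene on each array (log2 relative to the array's 75th percentile, vertical axis) in untreated and TGF-β1-treated cells, with lines joining the samples of a pair and black bars at the group means (n = 3). Each panel spans 2 log2 units at its own height; all 3 lines descend for Ccng1, Sesn1 and Perp, whose log2 changes were -0.24, -0.47 and -0.53.

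Trp53, which encodes p53 itself, had levels of 1.33, 1.55 and 1.25 on untreated arrays 1, 2 and 3 and of 1.29, 1.58 and 1.89 on the treated arrays of the same pairs. The groups overlapped, the pair differences were -0.04, 0.03 and 0.63, and the third treated array stood highest. The log2 change was 0.21 (SE 0.17, 95% interval -0.24 to 0.66, limma adjusted p = 0.782). Without pair 3 it was -0.01. A second Trp53 probe, spotted 10 times on each array, gave a log2 change of 0.02 (SE 0.14, 95% interval -0.35 to 0.38), with pair differences of 0.29, 0.01 and -0.24. The probes thus differed in direction in pairs 1 and 3, and the repeated probe had a spread over its spots of 0.061 to 0.16 (SD, log2) within an array.

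Mdm2, the ligase that marks p53 for degradation and is itself a p53 target, had levels of 1.18, 1.08 and 1.08 without treatment and 1.37, 1.33 and 1.07 with it. It was higher in pairs 1 and 2 and level in pair 3 (-0.01), and the groups overlapped. The log2 change was 0.14 (SE 0.11, 95% interval -0.16 to 0.44, adjusted p = 0.774), so the interval's upper end was a 1.35-fold rise. Its second probe, spotted 10 times, gave 0.18 (SE 0.11), was higher in all 3 pairs (0.14, 0.06 and 0.35) and had groups that did not overlap (limma adjusted p = 0.656 among probes). Of all genes 14.1% were higher in all pairs, and the share with groups apart in this direction was not counted.

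Ccng1 encodes cyclin G1, which brings protein phosphatase 2A to Mdm2 and is among the genes that respond most steadily to p53. Its untreated levels were 1.71, 1.46 and 1.53 and its treated levels 1.43, 1.29 and 1.26. All treated arrays lay below all untreated ones, which was so for 5.05% of all genes in this direction. The pair differences were -0.28, -0.16 and -0.27 and the log2 change -0.24 (SE 0.10, 95% interval -0.51 to 0.03, adjusted p = 0.513). The second probe gave -0.15 (SE 0.12) with overlapping groups and a pair 2 difference of 0.004.

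Sesn1 encodes sestrin 1, a stress protein that restrains the growth kinase complex mTORC1. Its levels were 2.85, 2.50 and 2.71 in untreated cells and 2.43, 2.14 and 2.07 after TGF-β1. The groups did not overlap, and the treated array was lower in every pair, by -0.42, -0.36 and -0.64 on the log2 scale. The change was -0.47 (SE 0.11, 95% interval -0.77 to -0.17), or 1.39-fold lower, with a limma p of 0.0102 before adjustment and 0.237 after it. Sesn1 had 3 probes, and the other 2 gave -0.49 (SE 0.14) and -0.55 (SE 0.15). On each of the 3 probes the groups did not overlap and all pairs were lower, and the adjusted p ran from 0.232 to 0.306 among 36345 probes tested one by one. The pair sizes differed between probes: pair 3 had the greatest difference on the brightest probe and the smallest on the others (-0.20 on both). The 3 probes read the same RNA samples and are not replicates.

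Perp encodes a membrane protein of cell junctions that takes part in p53-dependent death. It was at 4.21, 4.07 and 3.04 on the untreated arrays and at 3.46, 3.57 and 2.70 on the treated ones. The treated array was lower in every pair (-0.75, -0.50 and -0.33), but the groups overlapped, because pair 3 lay about a log2 unit below the others in both groups (mean level 2.87, against 3.83 and 3.82). The change was -0.53 (SE 0.13, 95% interval -0.86 to -0.19), or 1.44-fold lower, with a limma p of 0.0102 before adjustment and 0.236 after it. The standard error without the replicate block was 0.38, and Perp has 1 probe. With the authors' matrix values, with array weights or with a mean-variance trend Perp passed (limma adjusted p = 0.0275, 0.0404 and 0.0247). With the trend Sesn1 also did (0.0235). In the same settings 727, 1212 and 1115 of all 29163 genes and transcripts passed, against 196 in the main setting. Being lower in all 3 pairs was common: it held for 20.0% of all genes and for 3 of these 7 (Ccng1, Sesn1 and Perp), while 14.1% of all genes and 0 of the 7 were higher in all pairs.

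Trp53inp1 encodes a stress-induced nuclear protein that promotes the death-inducing phosphorylation of p53 and takes part in autophagy. Its levels were 1.24, 1.55 and 1.15 in untreated and 1.02, 1.70 and 1.46 in treated samples, so that pair 1 was lower and pairs 2 and 3 were higher. The change was 0.08 (SE 0.14, 95% interval -0.29 to 0.45, adjusted p = 0.92), and it was -0.03 without pair 3. The dimmer probe of the gene gave another picture. There the untreated levels of -2.22, -1.94 and -1.97 all lay below the treated levels of -1.72, -1.51 and -1.61. How common such a separation is among all probes was not counted. The log2 change on that probe was 0.43 (SE 0.10, 95% interval 0.16 to 0.70, limma adjusted p = 0.23 among probes). Whether the probes read different transcripts of the gene was not tested.

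Btg2 encodes an antiproliferative protein that binds the CCR4-NOT deadenylase. It had levels of -0.07, 0.46 and 0.46 without and -0.42, 0.31 and 0.47 with TGF-β1. Pair 1 lay lowest in both groups, and the groups overlapped. The log2 change was -0.17 (SE 0.12, 95% interval -0.48 to 0.15, adjusted p = 0.733). Its further probes gave 0.09 (SE 0.10) and 0.05 (SE 0.16), of the opposite sign, and the mean of the 3 probes gave -0.01.

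**Figure D2:**
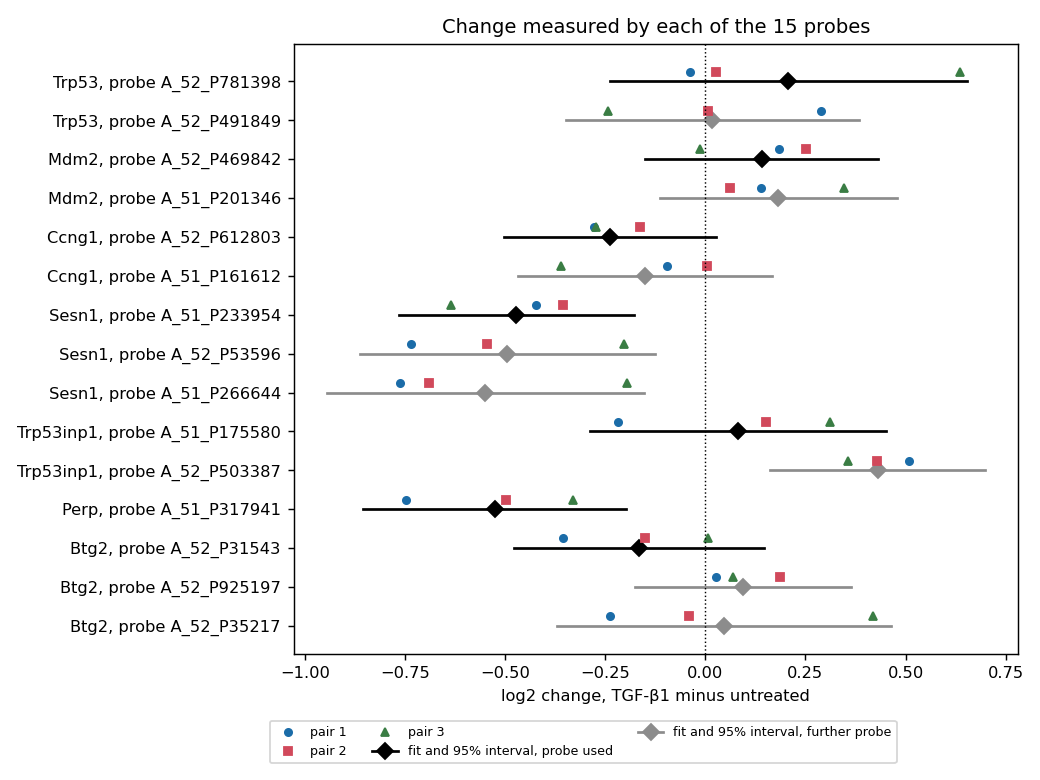
Log2 change (TGF-β1 minus untreated, horizontal axis) of each of the 15 probes of the 7 genes, with the limma estimate and 95% interval (diamonds and lines; black for the probe used, grey for further probes) and the difference of each pair (coloured symbols). The Sesn1 estimates lie together between -0.55 and -0.47, while those of Trp53inp1 (0.08 and 0.43) and Btg2 (-0.17, 0.09 and 0.05) do not.

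The wider p53 pathway was described by 5 lists of known regulators, paralogs and targets, with 68 of 73 genes measured. Over them 3 rose and 1 fell, where 0.672% of all genes were called in either direction. The lists were chosen with earlier results of these data known. Plk3, a stress-responsive Polo-like kinase, rose 4.58-fold (log2 change 2.20, SE 0.14, adjusted p = 0.0204) in the list of arrest and repair targets, where the other 12 of 13 did not pass and the median was -0.06. In that list p21 (Cdkn1a), the inhibitor through which p53 arrests the cycle, had 0.50 (SE 0.16, adjusted p = 0.364) with pair differences of 0.87, 0.43 and 0.21, and Gadd45a, a DNA-damage gene, had -0.52 (SE 0.11, adjusted p = 0.19).

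The death targets moved both ways: of 13 measured, 2 rose, 1 fell and 10 did not pass, with a median of -0.06. Trp53i11, known as a p53-inducible gene, rose 3.36-fold (log2 change 1.75, SE 0.15, adjusted p = 0.0329). Its untreated levels of -3.34, -3.31 and -4.47 lay below all treated levels of -1.47, -1.88 and -2.53. Without the replicate block its adjusted p was 0.266, and with normexp its change was 0.69 (adjusted p = 0.535). The BH3-only genes Bbc3 (Puma) and Pmaip1 (Noxa) opposed each other, at 1.23 (SE 0.11, adjusted p = 0.038) and -1.73 (SE 0.13, adjusted p = 0.027). Bbc3 did not pass without the block (0.0502). Fas, the death receptor, was lower in all pairs (-0.72, -0.62 and -0.90) without passing (adjusted p = 0.0942), and the pore-forming Bax had -0.10 (SE 0.13). Leaving out pair 1, 2 or 3 left 1, 0 or 2 of the 68 genes called.

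Upstream genes showed little. Of 19 measured regulators and family members 0 passed at an adjusted p under 0.05 by limma, and the median log2 change was -0.06. At an unadjusted p under 0.05 by limma there was 1, against 10.9% of all genes. Mdm4, the partner of Mdm2 that masks p53's activation domain, had -0.06 (SE 0.12), and Ppm1d, the phosphatase that ends p53 signalling and is its target, had -0.04 (SE 0.13). The p53 relatives Trp63 and Trp73 had 0.36 (SE 0.31), on a probe well above background on 5 of 6 arrays, and -0.11 (SE 0.10). The 15 targets of metabolism, feedback and other roles also had 0 calls by limma, with a median of 0.17. Of these 15, 7 had an unadjusted p under 0.05 by limma, against 10.9% of all genes. Zmat3 and Phlda3, which encode an RNA-binding protein and an inhibitor of the kinase Akt, had 0.17 (SE 0.11) and 0.18 (SE 0.12). Phlda3 differed far more between harvests than with treatment, with mean levels of 0.98, 2.52 and -1.85 in pairs 1, 2 and 3.

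Among 8 measured paralogs of the 7 genes, 0 passed by limma, and the median log2 change was 0.39. An unadjusted p under 0.05 by limma was reached by 4 of them, against 10.9% of all genes. Higher in all 3 pairs were 5 of them, against 14.1% of all genes. The paralog median was 0.02 within slide 1 and 0.34 within slide 2, values that mix in the differences between harvests. It was 0.34 to 0.38 without 1 pair and 0.25 with normexp. Sesn2, the sestrin most tied to nutrient and oxidative stress, had 0.77, 0.62 and 0.65 in pairs 1, 2 and 3 (log2 change 0.68, SE 0.11, adjusted p = 0.0953), where Sesn1 had -0.42, -0.36 and -0.64. Sesn2 levels were 1.33, 1.82 and 1.31 on untreated and 2.10, 2.44 and 1.96 on treated arrays. These do not overlap, but the share of all genes apart in this direction was not counted. Btg1, the relative of Btg2, had 0.28 (SE 0.13, adjusted p = 0.559). The difference between paralogs was not tested.

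**Figure D3:**
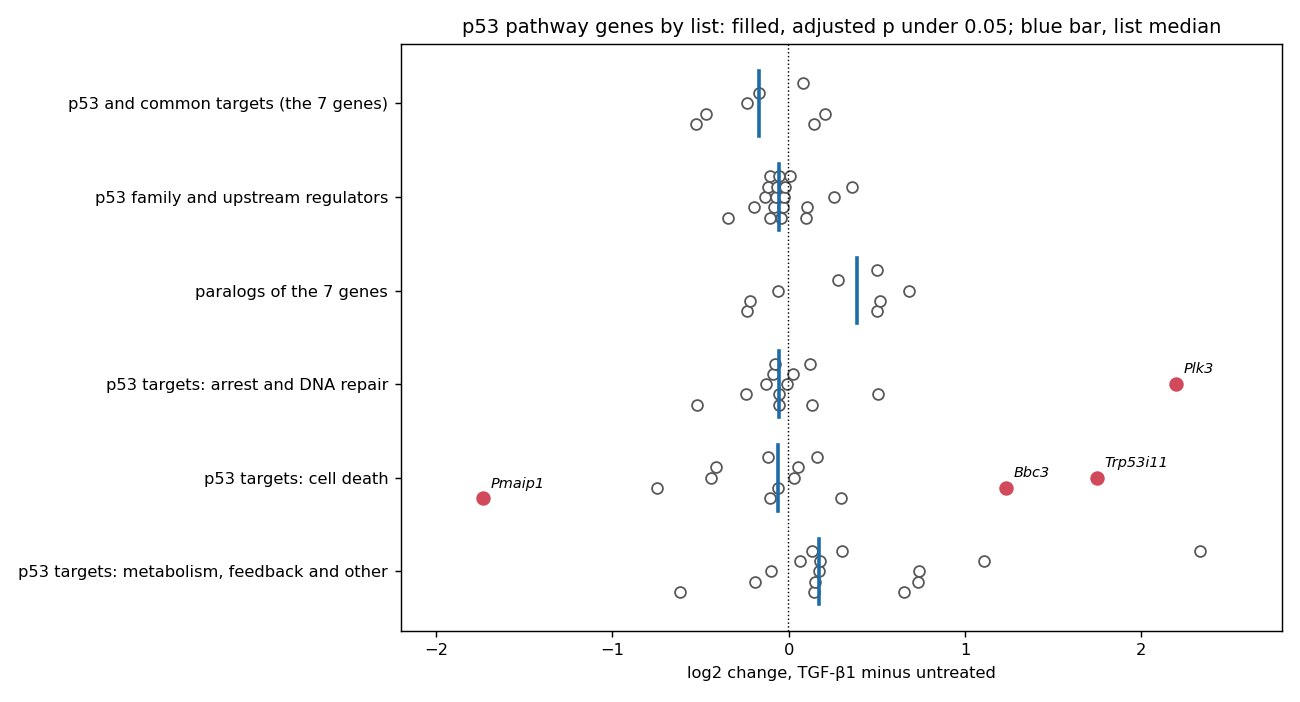
Log2 change (TGF-β1 minus untreated, horizontal axis) of every measured gene of the 7 and of the 5 pathway lists, 1 circle a gene, filled where the adjusted p was under 0.05, with the list median as a blue bar and the median of all genes as a dotted line. The 7 genes lie between -0.53 and 0.21, and the filled circles are Plk3, Bbc3, Trp53i11 and Pmaip1.

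The labelled cell type was checked by marker levels. The progenitor genes Cd34 and Kit had levels of 5.62 to 6.20 and 2.02 to 3.16, while Flt3 of the same list was at -2.39 to -1.85. Mpo, a granulocyte precursor gene, was at 8.46 to 8.60. S100a8 and S100a9 of the granulocyte list differed more between harvests and were highest in pair 3 in both groups. Their untreated levels in pairs 1, 2 and 3 were 1.51, 3.12 and 4.89 (S100a8) and 3.53, 5.16 and 6.15 (S100a9). The Lhx2 probe was dim (-4.55 to -3.86) although well above background on all arrays. Of the 45 marker genes measured in 9 lists, 0 passed by limma (7 had an unadjusted p under 0.05, against 10.9% of all genes). Mesenchymal markers differed between harvests, but not all 7 alike. Their summed level relative to the 75th percentile, most of it from Dcn and Col1a2, was 1.69 to 66.2 in untreated and 1.95 to 63.7 in treated samples, lowest in pair 3 in both groups. Dcn, the brightest of them, had mean levels of 4.04, 5.38 and -0.87 in pairs 1, 2 and 3. Col1a1, Col1a2, Col3a1 and Pdgfra were also lowest in pair 3, with pair means spanning 4.38 to 6.35, while Pdgfrb spanned 0.79 and Lum 0.15, and Lum was lowest in pair 1. The erythroid and megakaryocytic list was also lowest in pair 3 (20.2 and 17.6, against 57.4 to 69.9), as Perp was, and its brightest gene was Pf4; Hbb-b1 of that list was not well above background on 3 arrays. Of the 7 epithelial markers, relevant to Perp as a gene of cell junctions, Cdh1 and Dsp were not well above background on 3 arrays and the sum was 1.03 to 1.66. The part of these markers in the levels of Perp was not tested. Fewer cells of a type and less RNA per cell cannot be told apart in bulk RNA. The other lists were led by Krt5 (epithelial), Kdr (endothelial), Adgre1 (macrophage), Cpa3 (mast cell) and Nkg7 (lymphocyte).

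Among the other 15637 named genes, those whose 6 levels resembled a member most by Pearson correlation were Srrm4 (0.998) and Spata31d1a (0.997) for Trp53, Nav1 (0.991) for Mdm2, and Kctd5 (0.993) and Fam117a (0.992) for Ccng1. They were Mtfmt (0.998) and 1810055G02Rik (0.997) for Sesn1, Olfr1216 (0.995) and L3mbtl4 (0.991) for Trp53inp1, P2ry10 (0.999) and Septin6 (0.993) for Perp, and Polh (0.990) and B4galnt3 (0.989) for Btg2. These values rest on 6 arrays that share harvests and treatment, and none of the genes named here passed limma's test of the treatment (adjusted p 0.114 to 0.989).

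**Figure D4:**
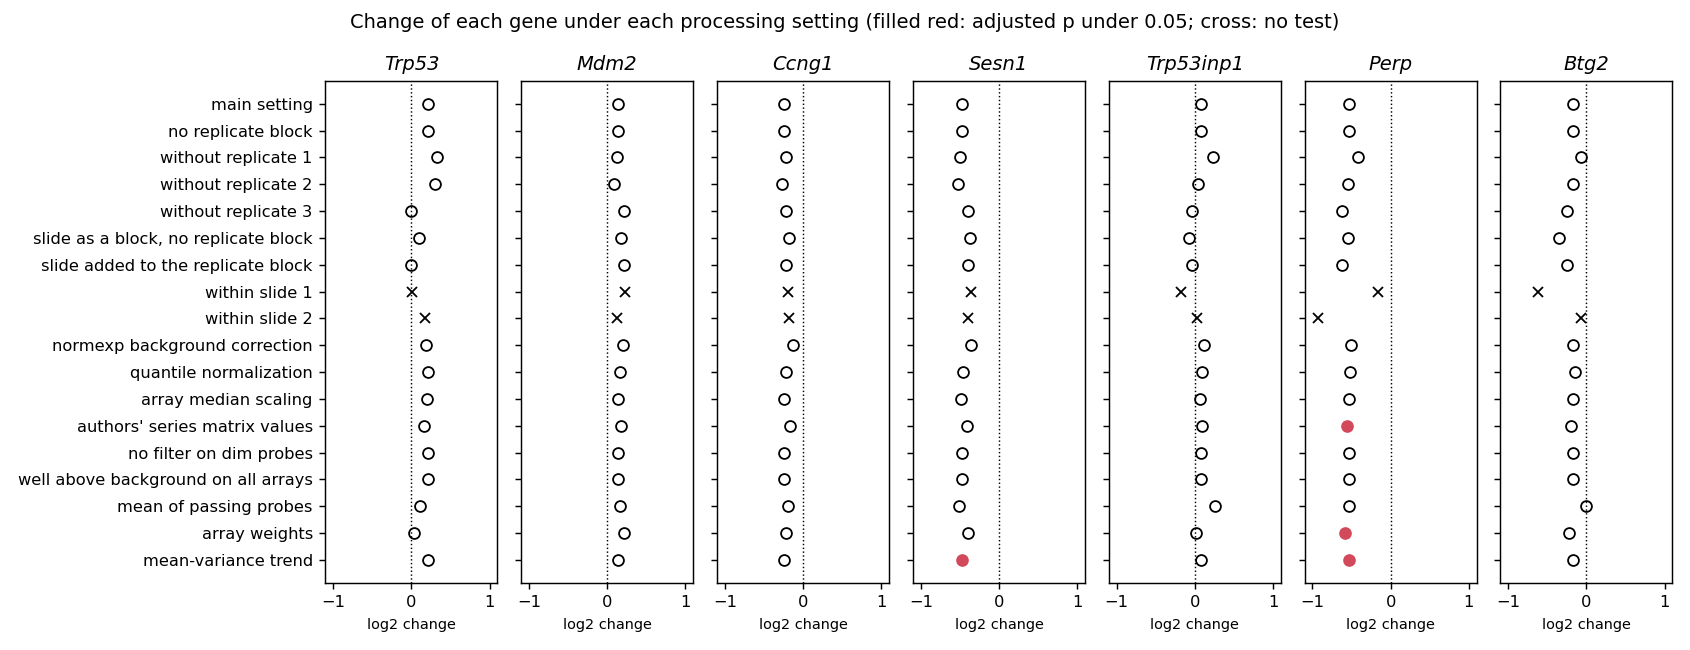
Log2 change (TGF-β1 minus untreated, horizontal axis) of each of the 7 genes in the main setting and under 17 alternatives; circles are tested values, filled where the adjusted p was under 0.05, and crosses are values within a slide with no test. Mdm2, Ccng1, Sesn1, Perp and Btg2 kept 1 sign throughout, Trp53 and Trp53inp1 did not, and the filled circles are 3 for Perp and 1 for Sesn1.

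The arrays lay on 2 slides: pair 1 was on slide 1, pair 2 on slide 2, and pair 3 was divided between them. Those pairs alone gave -0.62 for Perp, -0.39 for Sesn1, -0.22 for Ccng1 and 0.22 for Mdm2. With all arrays of a slide, and no test because 1 group has a single array, Sesn1 had -0.35 on slide 1 and -0.39 on slide 2. Perp had -0.16 and -0.93 and Btg2 had -0.62 and -0.07, and these within-slide values mix in the differences between harvests.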

How the data were processed

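The 6 one-colour (Cy3) arrays are of Agilent design 014868. Per the file headers, spot intensity came from Feature Extraction version 10.1.1.1; the authors' deposited processed signal is background-subtracted and not scaled between arrays. The deposited series matrix holds log2 values that follow the log2 median spot signal (r of 0.9995 to 0.9999; column medians 7.38 to 7.42); how they were normalized is not given in the sources used here. Limma is named in the submitters' processing notes.

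Processed signal was taken as log2 minus the array's 75th percentile (794 to 1031). Flagged outlier spots (43 to 101 per array) were left out, spots of a probe averaged, and probes well above background on at least 3 arrays kept (82.8% to 90.3% of probes per array were above it). Symbols came from RefSeq accessions (assembly GRCm38.p6, names only), for 23374 of 41174 probes; the brightest passing probe represents a gene. The main test was limma (version 3.58.1, R 4.3.3) with the replicate number as a block, because the comparison is defined by pairs; the code was tested on simulated data. It was rerun without the block, without each pair, with slides as blocks, and with other background correction, scaling, filters, probe choice and variance models. The numbers come from the labels, and same-numbered samples deviated together (correlation 0.557 to 0.786, against -0.736 to 0.0712 for others). The deviations are from the mean of each group's 3 arrays and sum to 0, which pushes the other correlations down. The 2 ranges are therefore not independent, and pairs 1 and 2 each also shared a slide. The files hold no mean signal, so normexp used the median signal. The genes and lists were chosen with earlier results of these data known. Named were the 7 genes, fixed well-known list members, up to 4 called genes per list, 3 treatment controls, the brightest marker per list and the 2 nearest patterns per gene (1 is not reported here); Kit, the Lhx2 gene, the other mesenchymal markers and the markers at or near background are named outside that rule.  The number of arrays limits the precision.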

Additional observations from a re-analysis of the deposited data

How the results depend on the processing

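The 7 genes were recomputed under 17 alternatives, 15 of them with a test. The count of called genes among them was 0 in the main setting and in the other tested alternatives (0 to 2 at an unadjusted p under 0.05), but 1 with the authors' matrix values and with array weights (Perp, -0.56 and -0.58), and 2 with a mean-variance trend (Perp -0.53, Sesn1 -0.47). With the matrix values, array weights and the trend, 727, 1212 and 1115 of all 29163 genes and transcripts passed, against 196 in the main setting. Perp moved to -0.16 within slide 1 and -0.93 within slide 2, and Btg2 to -0.62 within slide 1. Leaving out 1 pair gave -0.62 to -0.42 for Perp, -0.53 to -0.39 for Sesn1, -0.28 to -0.22 for Ccng1, -0.25 to -0.07 for Btg2, 0.08 to 0.22 for Mdm2, -0.01 to 0.33 for Trp53 and -0.03 to 0.23 for Trp53inp1.

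The count over all genes, 196, was 74 with no replicate block, 59 with the slide as a block, 67 with the slide added to the replicate block, 26 to 67 without 1 pair, 0 with normexp (2194 at an unadjusted p under 0.05 by limma; the median of all genes was -0.16), 27 with no filter on dim probes, 377 with quantile normalization, 449 with array medians, 727 with the authors' matrix values (521 higher and 206 lower, against 161 and 35), 372 with probes above background on all arrays, 1212 with array weights and 1115 with the trend. The pathway lists, with 4 called genes, had 2 with no replicate block, 2 with either slide setting, 0 to 2 without 1 pair, 0 with normexp or no filter (18 and 21 at an unadjusted p under 0.05), 10 with the matrix values, 14 with array weights and 16 with the trend. The slide added to the replicate block gives the same estimates as leaving out pair 3. Sesn1 kept its sign under all 17 alternatives (-0.53 to -0.35, adjusted p 0.0235 to 0.777). The cause of these differences was not tested.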
